A study of Mus musculus with 9 samples.

Results

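The unfolded protein response and the integrated stress response were described in mouse kidney through 42 genes, taken as the rows of the count tables whose Ensembl identifier carried one of 42 member symbols in GENCODE release M21, out of 29678 genes in all. The genes fall into an ER chaperone arm of 24 genes, which hold the folding machinery, the sensors Ern1 and Atf6, the factor Xbp1 and the ER-associated degradation machinery, and an ATF4 arm of 18 genes, which hold the kinase gene Eif2ak3, Atf4 and the genes ATF4 is known to act on. RNA-seq of poly(A)-selected RNA was done on kidney tissue, 24 h after reperfusion, in 3 groups. BHBNa_bIRI kidneys were given the sodium salt of beta-hydroxybutyrate, the main ketone body of fasting blood, before bilateral ischemia-reperfusion injury. Kidneys of the bIRI group had the same injury without that pretreatment, and Sham kidneys were sham-operated. The labels give 3 libraries per group, and the dose and timing of beta-hydroxybutyrate, the vehicle of the other groups, and the strain, age, sex and number of mice are not given in the sources used here.

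Proteins that fail to fold in the endoplasmic reticulum (ER) are sensed by IRE1 (the product of Ern1), ATF6 and PERK (the product of Eif2ak3). IRE1 splices Xbp1 mRNA, and spliced XBP1 together with cleaved ATF6 switches on chaperones, disulfide isomerases and the degradation of misfolded proteins. PERK and other kinases of the integrated stress response phosphorylate eIF2alpha, which slows most translation but favours that of ATF4, a factor that switches on amino acid and one-carbon synthesis and, with CHOP (the product of Ddit3), genes of recovery or cell death. Proximal tubule cells, which make up much of the kidney cortex, are sensitive to ischemia, and both responses are known in injured tubules. Counts per gene measure neither the splicing of Xbp1 nor the ATF4 protein nor eIF2alpha phosphorylation.

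In 100% of genes, the deposited bIRI replicate 2 held the rounded-down average of bIRI 1 and bIRI 3, so this library was left out and the bIRI group held 2 libraries. Total counts of the other 8 libraries ran from 33477985 in bIRI 3 to 45909063 in Sham 2. Levels are given as CPM, counts scaled to the TMM-corrected library size, and in these units 3 counts correspond to 0.0646 to 0.0815 CPM. All 42 members passed the filter on low counts and were among the 17967 genes tested. A gene was called when edgeR's quasi-likelihood test gave a Benjamini-Hochberg adjusted p under 0.05, adjusted over all genes tested. The labels tie no library to an animal of its own, so p-values measure only the spread between libraries, which may be technical. Both bIRI libraries differed by 1.5-fold or more in 12 of 18 ATF4 arm genes and in 9 of 24 ER chaperone arm genes, and this spread bears on every comparison with bIRI. The same share over all genes was not counted. Of the 8 proximal tubule markers, 8 fell in bIRI against Sham, with a summed level of 1804 to 1964 CPM in BHBNa_bIRI, 1263 to 1542 CPM in bIRI and 11683 to 13395 CPM in Sham. In bulk tissue, fewer cells of a type and less RNA per cell cannot be told apart, and the part of the tubule's loss in the values below was not tested.

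Elements through which both arms are known to be read were searched in the promoters of the members. RefSeq promoters on GRCm38.p6, 300 bases long and running from 250 bases before a gene's start to 50 after it, were at hand for 38 of 42 members, and no entry was matched for Atf6, Manf, Hyou1 and Derl1. These 38 members had 41 promoters. A member gene was counted when any of its promoters matched, while the shares over all promoters count each promoter. The ER stress response element (ERSE), the site of ATF6 with NF-Y, was searched as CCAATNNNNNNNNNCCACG. It was found in 9 of 20 genes of the ER chaperone arm (Hspa5, Calr, Derl3, Hsp90b1, Canx, Pdia6, Dnajc3, Creld2 and Syvn1) and in 0 of 18 genes of the ATF4 arm, against 39 of all 32851 promoters (0.119%). ERSE-II, searched as ATTGGNCCACG, was found in Herpud1 and Dnajb11 and in 12 of all promoters (0.0365%). The C/EBP-ATF response element (CARE), the composite site of ATF4, was searched as TGATGNAA. It was found in 5 of 18 genes of the ATF4 arm (Chac1, Trib3, Asns, Nupr1 and Pycr1) and, in the ER chaperone arm, in Herpud1, against 1304 of all promoters (3.97%). The XBP1 element UPRE, searched as TGACGTGG, was found in 222 of all promoters (0.676%) and in no member's window. Both strands were searched, the motifs were allowed to overlap, and a match is a description of letters and not a site shown to be bound. Only the letters given were searched, so a missing match does not show that an element is missing.

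The 3 whole promoters that follow belong to the ER chaperone Hspa5, to Herpud1, whose promoter holds both kinds of element, and to Nupr1, the member with the largest fold change. Each is printed 5′ to 3′ on the gene's own strand in lower case, with ERSE, ERSE-II or CARE matches in capitals.
Hspa5 promoter, chr2:34771840-34772139, + strand: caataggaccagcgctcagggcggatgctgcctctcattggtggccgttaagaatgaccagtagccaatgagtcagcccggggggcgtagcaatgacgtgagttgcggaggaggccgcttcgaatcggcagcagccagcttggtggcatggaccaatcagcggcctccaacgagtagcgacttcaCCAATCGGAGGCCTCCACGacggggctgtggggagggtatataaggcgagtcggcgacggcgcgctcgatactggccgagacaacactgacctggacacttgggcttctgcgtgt
Herpud1 promoter, chr8:94386179-94386478, + strand: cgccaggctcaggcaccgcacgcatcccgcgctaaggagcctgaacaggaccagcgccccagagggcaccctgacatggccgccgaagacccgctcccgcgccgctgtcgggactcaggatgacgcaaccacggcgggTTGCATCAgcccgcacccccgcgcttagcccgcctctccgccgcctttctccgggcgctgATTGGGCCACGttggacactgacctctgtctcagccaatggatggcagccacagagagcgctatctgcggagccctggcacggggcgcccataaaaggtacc
Nupr1 promoter, chr7:126625421-126625720, - strand: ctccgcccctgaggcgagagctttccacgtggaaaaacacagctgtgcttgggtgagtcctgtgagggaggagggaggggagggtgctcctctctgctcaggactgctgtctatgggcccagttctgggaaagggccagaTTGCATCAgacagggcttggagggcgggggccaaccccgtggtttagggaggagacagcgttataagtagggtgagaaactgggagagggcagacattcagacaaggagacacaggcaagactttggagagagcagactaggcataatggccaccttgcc
The Hspa5 window holds 1 ERSE in capitals, Herpud1 holds a CARE read on the other strand followed by an ERSE-II, and Nupr1 holds a CARE read on the other strand. Matches of other members, with 25 bases on each side, are given to show how the same element sits in genes that went different ways in these kidneys.
Hsp90b1, chr10:86705613-86705681, - strand: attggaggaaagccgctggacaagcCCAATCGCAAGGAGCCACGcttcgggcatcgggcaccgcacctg
Creld2, chr15:88819495-88819563, + strand: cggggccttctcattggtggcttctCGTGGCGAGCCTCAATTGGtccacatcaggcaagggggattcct
Dnajc3, chr14:118937802-118937870, + strand: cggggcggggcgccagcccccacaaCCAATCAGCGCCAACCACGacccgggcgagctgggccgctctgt
Calr, chr8:84847050-84847118, - strand: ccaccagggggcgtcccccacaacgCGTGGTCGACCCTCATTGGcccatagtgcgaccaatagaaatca
Asns, chr6:7693200-7693257, - strand: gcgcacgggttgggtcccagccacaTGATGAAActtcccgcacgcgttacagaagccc
Chac1, chr2:119351024-119351081, + strand: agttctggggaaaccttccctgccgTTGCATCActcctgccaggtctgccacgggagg
Pycr1, chr11:120643819-120643876, - strand: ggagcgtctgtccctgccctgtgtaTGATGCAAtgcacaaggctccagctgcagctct
Capitals mark the ERSE in Hsp90b1, Creld2, Dnajc3 and Calr, read on the other strand in Creld2 and Calr, and the CARE in Asns, Chac1 and Pycr1, read on the other strand in Chac1. Hsp90b1 holds a second ERSE, on the other strand, which is not printed. Among these genes with an ERSE, Hsp90b1 and Creld2 rose in bIRI against Sham, Dnajc3 fell in BHBNa_bIRI against both other groups, and Calr was not called in any comparison.

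The first comparison, bIRI against Sham, asked how ischemia and reperfusion left the members after a day. Of the transcription factor genes of the ATF4 arm 5 rose, from Nupr1 at 8.96-fold to Ddit3 at 1.80-fold, with 3 of 8 enzyme genes of amino acid synthesis. Of the ER chaperone arm 4 genes rose, each by less than 2-fold, and of 7 genes of ER-associated degradation 3 fell, by 2.01-fold or more. By edgeR, 12 of 42 members rose, where 18.9% of all genes tested did, and 4 fell, where 16.2% of all genes did. In the ATF4 arm 8 of 18 genes rose, 1 fell and 9 were not called, with a median log2 fold change of 0.77, which was 0.30 without bIRI 1 (6 genes rose, 3 fell) and 0.98 without bIRI 3. In the ER chaperone arm 4 of 24 genes rose, 3 fell and 17 were not called, with a median of 0.06, beside 0.08 over all genes tested. Unadjusted p was under 0.05 for 18 of 42 members (42.9%) and for 45.8% of all genes. For 24 of 42 members the bIRI and Sham libraries were fully apart, 17 higher and 7 lower, where 55.9% of all genes tested were apart, 28.7% higher and 27.2% lower. With length and GC trends removed 14 members rose and 5 fell, where 20.2% of all genes rose and 16.3% fell, or 36.6% either way, against 35.1% with the trends left in.

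**Figure D1:**
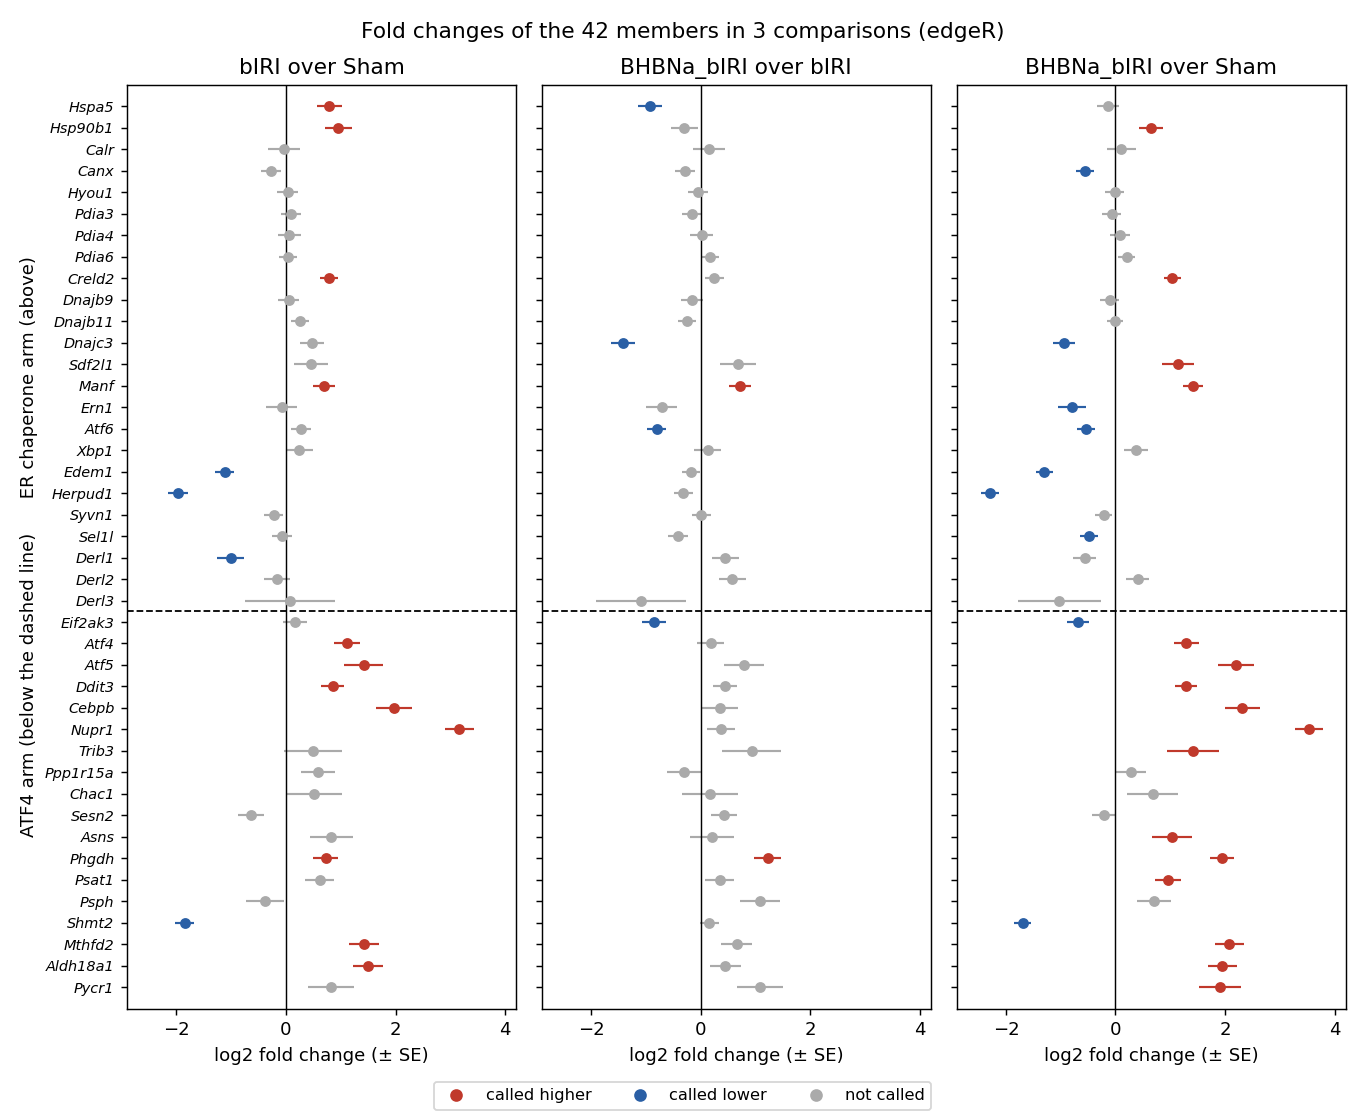
Log2 fold changes (x axis) of the 42 members (y axis) in the 3 comparisons, 1 panel each. Bars are 1 standard error, worked out from edgeR's log2 fold change and F statistic. Red points were called higher, blue points called lower and grey points not called. Nupr1 lies farthest right and Herpud1 farthest left in both comparisons with Sham, and BHBNa_bIRI against bIRI holds 6 coloured points.

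Chaperones of the ER lumen gave split results. Hspa5, the gene of BiP, the ER chaperone that also holds the stress sensors inactive (ENSMUSG00000026864, chr2:34771970-34777547), had 210.5, 270.3 and 232 CPM in BHBNa_bIRI 1, 2 and 3, 371 and 535 CPM in bIRI 1 and 3, and 294, 253 and 236 CPM in Sham 1, 2 and 3. Both bIRI libraries lay above all the others, and BHBNa_bIRI and Sham overlapped. Hspa5 was 1.73-fold higher in bIRI than in Sham (log2 0.79, SE 0.22, adjusted p 0.0220) and 1.90-fold lower in BHBNa_bIRI than in bIRI (log2 -0.93, SE 0.22, adjusted p 0.0345). Between BHBNa_bIRI and Sham its log2 fold change was -0.14 (SE 0.20, adjusted p 0.613), which was not called. Leaving out any 1 Sham or BHBNa_bIRI library lost the call of Hspa5 in BHBNa_bIRI against bIRI. The call of Hspa5 against Sham was lost without bIRI 3, where its log2 fold change was 0.51, and also without Sham 2 or Sham 3.

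Hsp90b1, which encodes the ER chaperone GRP94 (ENSMUSG00000020048, chr10:86690209-86705509), had 146, 153 and 177 CPM in BHBNa_bIRI, 139 and 252 CPM in bIRI, and 98.8, 97.9 and 106 CPM in Sham. All 5 injured libraries were above the Sham libraries, and the BHBNa_bIRI libraries lay between both bIRI libraries. It rose 1.94-fold in bIRI (log2 0.96, SE 0.24, adjusted p 0.0139) and 1.57-fold in BHBNa_bIRI (log2 0.66, SE 0.22, adjusted p 0.0365), both against Sham. The first of these calls was lost without bIRI 3 (log2 0.46) and without Sham 1 or Sham 2, and the second when any 1 library of BHBNa_bIRI or Sham was left out. Calr, the gene of calreticulin, which folds glycoproteins and buffers calcium, had 605, 560.1 and 738 CPM in BHBNa_bIRI, 385 and 759 CPM in bIRI, and 557, 546 and 664 CPM in Sham. The groups overlapped throughout, the bIRI libraries were its lowest and its highest, and no comparison was called. Canx, the gene of calnexin, the membrane-bound partner of calreticulin, had 274 to 331 CPM in BHBNa_bIRI, 351 and 373 CPM in bIRI and 428 to 444 CPM in Sham. These 3 ranges did not overlap, but of Canx only the fall in BHBNa_bIRI against Sham was called (log2 -0.55, SE 0.17, adjusted p 0.0228), and it was lost without BHBNa_bIRI 1, BHBNa_bIRI 3 or any 1 Sham library. Hyou1, a large ER chaperone that exchanges the nucleotide of BiP, stayed between 84.4 and 113 CPM in the 8 libraries and was not called.

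Disulfide isomerases, which form and rearrange disulfide bonds in new proteins, were not called, apart from Creld2. Pdia4 had 110.0, 107 and 117 CPM in BHBNa_bIRI, 85.4 and 135 CPM in bIRI, and 99.6, 102 and 114 CPM in Sham, so that the groups overlapped. Pdia3 ranged from 329 to 424 CPM and Pdia6 from 142 to 186 CPM over the 8 libraries, and neither was called in any comparison. Creld2, an ER-resident protein with isomerase activity that is a marker of ER stress (ENSMUSG00000023272, chr15:88819646-88826683), had 36.7, 35.1 and 40.7 CPM in BHBNa_bIRI, 33.9 and 29.1 CPM in bIRI, and 19.0, 15.8 and 20.03 CPM in Sham. The 3 groups did not overlap, and Creld2 was highest in BHBNa_bIRI. It rose 1.72-fold in bIRI (log2 0.79, SE 0.17, adjusted p 0.00740) and 2.05-fold in BHBNa_bIRI (log2 1.04, SE 0.16, adjusted p 0.000835) against Sham, while BHBNa_bIRI against bIRI was not called (log2 0.25, SE 0.17, adjusted p 0.336).

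Among the 5 co-chaperones and their partners, Dnajc3 was called lower and Manf higher in BHBNa_bIRI than in bIRI. Neither call held under all the alternatives tried, and the other genes were not called in that comparison. Dnajc3, the gene of the BiP co-chaperone P58IPK, which also restrains PERK (ENSMUSG00000022136, chr14:118937976-118981697), had 41.8, 54.2 and 39.5 CPM in BHBNa_bIRI, 94.6 and 146 CPM in bIRI, and 92.4, 85.5 and 82.6 CPM in Sham. The BHBNa_bIRI libraries lay below all the others, and bIRI 1 was close to Sham. Dnajc3 was 2.66-fold lower in BHBNa_bIRI than in bIRI (log2 -1.41, SE 0.22, adjusted p 0.0275) and 1.92-fold lower than in Sham (log2 -0.94, SE 0.20, adjusted p 0.00478). The first of these calls was lost without Sham 1, Sham 2, BHBNa_bIRI 1 or BHBNa_bIRI 3. In bIRI against Sham the log2 fold change of Dnajc3 was 0.47 (SE 0.22, adjusted p 0.125), which was not called. Manf, a secreted factor that protects cells under ER stress (ENSMUSG00000032575, chr9:106838312-106891979), had 94.1, 83.3 and 118 CPM in BHBNa_bIRI, 66.9 and 52.8 CPM in bIRI, and 34.4, 34.2 and 42.2 CPM in Sham. No groups overlapped, with BHBNa_bIRI on top. It rose 1.64-fold in BHBNa_bIRI against bIRI (log2 0.72, SE 0.21, adjusted p 0.0499), 1.62-fold in bIRI against Sham (log2 0.70, SE 0.20, adjusted p 0.0250) and 2.66-fold in BHBNa_bIRI against Sham (log2 1.41, SE 0.19, adjusted p 0.000401). The rise of Manf in bIRI against Sham was lost without bIRI 1 (log2 0.45) and without Sham 1 or Sham 2. Its rise in BHBNa_bIRI against bIRI was lost when any 1 Sham or BHBNa_bIRI library was left out. Manf shares 146 exonic bases on the opposite strand with Dcaf1, which averaged 20.4 CPM over the 8 libraries.

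Sdf2l1, a partner of BiP and its DnaJ proteins, had 16.2, 13.4 and 22.7 CPM in BHBNa_bIRI, 8.12 and 13.6 CPM in bIRI, and 7.23, 6.32 and 10.2 CPM in Sham. Its BHBNa_bIRI libraries were all above Sham, a 2.20-fold rise (log2 1.14, SE 0.29, adjusted p 0.0115), and bIRI overlapped both groups. This call of Sdf2l1 was lost without BHBNa_bIRI 3, Sham 1 or Sham 2. Dnajb9, a BiP co-chaperone that restrains IRE1 and a textbook target of spliced XBP1, had 59.7, 67.8 and 57.2 CPM in BHBNa_bIRI, 81.9 and 55.4 CPM in bIRI, and 67.0, 70.0 and 61.8 CPM in Sham. It overlapped in all groups and was not called. Dnajb11, another DnaJ partner of BiP, ranged from 68.3 to 96.1 CPM and was not called either.

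**Figure D2:**
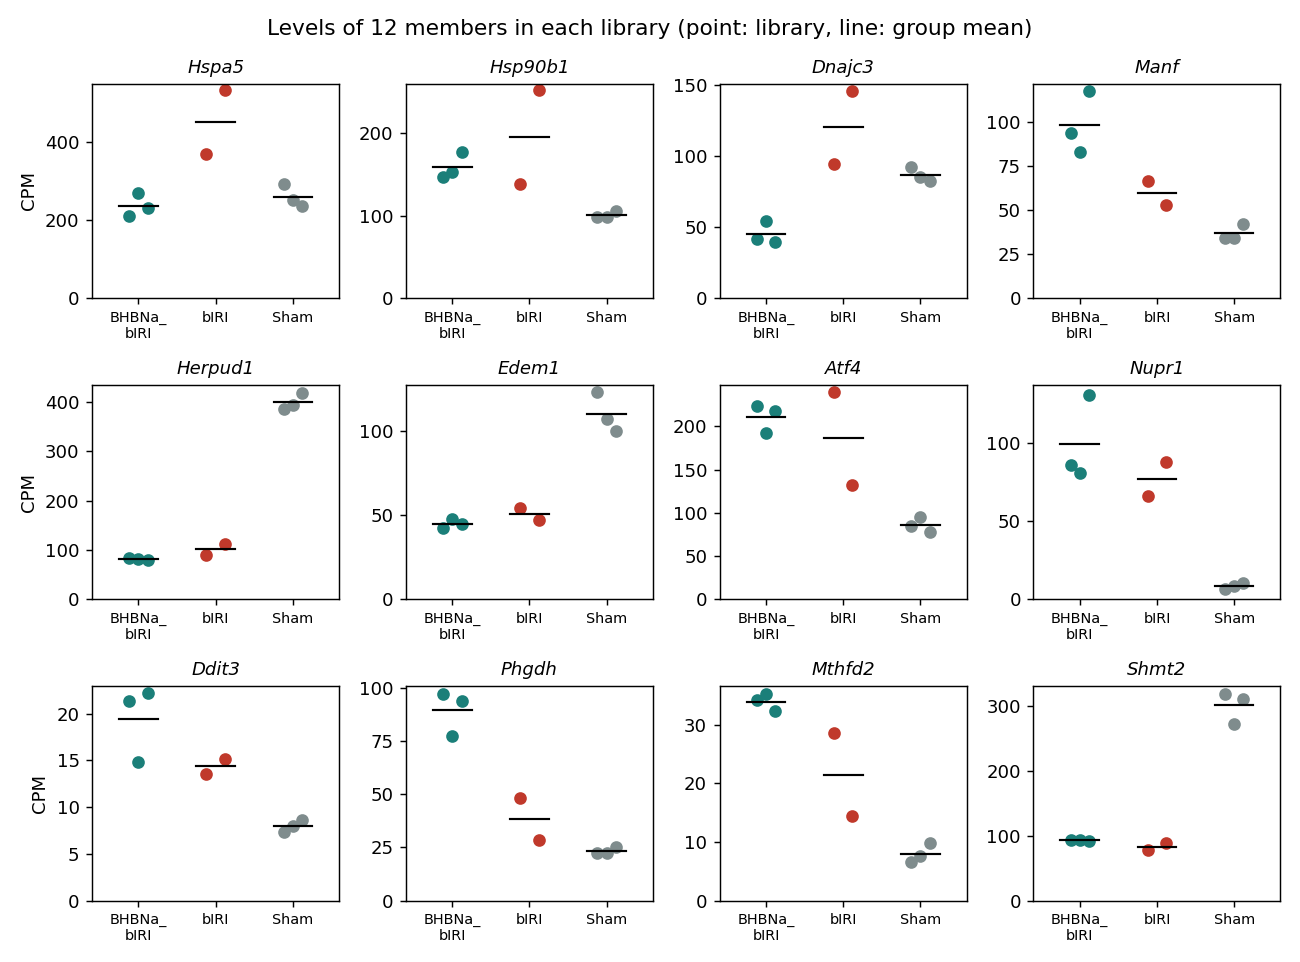
Levels (CPM, y axis, starting at 0) of 12 members in each library, with a line at the mean of each group; the groups from left to right are BHBNa_bIRI, bIRI and Sham, with 3, 2 and 3 libraries. Hspa5 and Dnajc3 are highest in bIRI, Manf and Phgdh are highest in BHBNa_bIRI, and Herpud1, Edem1 and Shmt2 are highest in Sham.

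The sensors of the ER chaperone arm were called lower in BHBNa_bIRI against Sham, though not with length and GC trends removed. Xbp1 was not called in any comparison. Atf6, the gene of the membrane-bound factor that is cut in the Golgi to reach the nucleus (ENSMUSG00000026663, chr1:170704674-170867771), had 33.9, 37.7 and 31.9 CPM in BHBNa_bIRI, 59.4 and 61.0 CPM in bIRI, and 58.0, 50.1 and 41.6 CPM in Sham. All BHBNa_bIRI libraries lay below all the others. It fell 1.74-fold in BHBNa_bIRI against bIRI (log2 -0.80, SE 0.18, adjusted p 0.0304) and 1.45-fold against Sham (log2 -0.53, SE 0.16, adjusted p 0.0243). Both calls of Atf6 were lost without Sham 1, Sham 2, BHBNa_bIRI 1 or BHBNa_bIRI 3. They were also lost with length and GC trends removed (log2 -0.19 against bIRI and -0.21 against Sham). Ern1, the gene of the kinase and nuclease IRE1, had 12.8, 14.7 and 12.2 CPM in BHBNa_bIRI, 17.7 and 25.8 CPM in bIRI, and 31.1, 22.2 and 15.6 CPM in Sham. The BHBNa_bIRI libraries were the lowest here too, and bIRI lay within the wide range of Sham. Ern1 fell in BHBNa_bIRI against Sham (log2 -0.79, SE 0.26, adjusted p 0.0326), and against bIRI it was not called (log2 -0.71, SE 0.28, adjusted p 0.110). Its call was lost when Sham 1, Sham 2 or any 1 BHBNa_bIRI library was left out. It was also lost with length and GC trends removed (log2 -0.47). Xbp1, the gene of the factor whose mRNA IRE1 splices, had 209, 270.3 and 269 CPM in BHBNa_bIRI, 275 and 181 CPM in bIRI, and 181, 228 and 169 CPM in Sham. Its log2 fold changes were 0.13 to 0.37 with standard errors of 0.22 to 0.24, and the groups overlapped.

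Genes of ER-associated degradation, which pull misfolded proteins out of the ER and mark them for the proteasome, held the 3 genes of the arm that fell in bIRI against Sham. Herpud1, a membrane protein that gathers the degradation complex (ENSMUSG00000031770, chr8:94386438-94395377), had 84.3, 81.7 and 79.3 CPM in BHBNa_bIRI, 91.1 and 113 CPM in bIRI, and 387, 393 and 418 CPM in Sham. Every injured library lay far below every Sham library. It fell 3.92-fold in bIRI against Sham (log2 -1.97, SE 0.19, adjusted p 0.000145) and 4.88-fold in BHBNa_bIRI against Sham (log2 -2.29, SE 0.17, adjusted p 2.13e-05). Edem1, a lectin that hands misfolded glycoproteins to degradation (ENSMUSG00000030104, chr6:108828641-108859356), had 42.1, 47.5 and 44.6 CPM in BHBNa_bIRI, 53.9 and 47.3 CPM in bIRI, and 123, 107 and 99.9 CPM in Sham. Sham lay apart from both injured groups, which overlapped each other. Edem1 fell 2.17-fold in bIRI (log2 -1.12, SE 0.17, adjusted p 0.00128) and 2.46-fold in BHBNa_bIRI (log2 -1.30, SE 0.15, adjusted p 0.000201) against Sham.

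Derl1, a channel subunit of the degradation complex, had 133, 132 and 154 CPM in BHBNa_bIRI, 132 and 73.2 CPM in bIRI, and 216, 194 and 209 CPM in Sham. Sham lay above all injured libraries, and bIRI 3 was the lowest of all. The fall of Derl1 in bIRI against Sham was called (log2 -1.01, SE 0.25, adjusted p 0.0129), with a log2 fold change of -0.65 without bIRI 3 and of -1.57 without bIRI 1. In BHBNa_bIRI against Sham it was not called (log2 -0.56, SE 0.22, adjusted p 0.0605). Sel1l, the scaffold of the ubiquitin ligase complex, had 63.8 to 73.6 CPM in BHBNa_bIRI, 83.2 and 96.3 CPM in bIRI, and 82.6 to 109 CPM in Sham. It fell in BHBNa_bIRI against Sham (log2 -0.49, SE 0.16, adjusted p 0.0363), which was lost when any 1 of Sham 1, Sham 2 or the BHBNa_bIRI libraries was left out. Syvn1, the ubiquitin ligase itself, and Derl2, a relative of Derl1, ranged from 33.6 to 46.3 CPM and from 40.1 to 90.7 CPM and were not called. Derl3, a further relative that is known from secretory cells, was rare, at 0.280 to 1.39 CPM in BHBNa_bIRI, 0.569 and 2.20 CPM in bIRI and 0.616 to 1.91 CPM in Sham. It was not called, and the markers of B and plasma cells summed to 9.07 to 12.2 CPM in BHBNa_bIRI, 4.60 to 8.19 CPM in bIRI and 17.3 to 260.3 CPM in Sham, whose part in Derl3 was not tested.

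In the ATF4 arm the factors came first. Atf4, the effector of the integrated stress response (ENSMUSG00000042406, chr15:80255184-80257541), had 224, 192 and 218 CPM in BHBNa_bIRI, 239.9 and 132 CPM in bIRI, and 84.3, 95.7 and 78.1 CPM in Sham. All injured libraries lay above Sham, and the BHBNa_bIRI libraries lay between both bIRI libraries. Atf4 rose 2.16-fold in bIRI (log2 1.11, SE 0.25, adjusted p 0.00763) and 2.45-fold in BHBNa_bIRI (log2 1.30, SE 0.23, adjusted p 0.00176) against Sham. Without bIRI 1 its log2 fold change in bIRI against Sham was 0.55, and without bIRI 3 it was 1.48, and both were called. Atf5, a relative of Atf4 that is likewise translated under stress, had 121, 67.2 and 88.5 CPM in BHBNa_bIRI, 76.7 and 30.4 CPM in bIRI, and 20.4, 19.4 and 20.4 CPM in Sham. Sham was lowest, and bIRI 1 reached the BHBNa_bIRI range. It rose 2.67-fold in bIRI (log2 1.42, SE 0.35, adjusted p 0.0131) and 4.61-fold in BHBNa_bIRI (log2 2.20, SE 0.33, adjusted p 0.000827), and the first call was lost without bIRI 1 (log2 0.53, adjusted p 0.106).

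Nupr1, a small stress-induced nuclear protein (ENSMUSG00000030717, chr7:126623249-126630861), had 85.9, 81.1 and 131 CPM in BHBNa_bIRI, 66.2 and 87.6 CPM in bIRI, and 6.81, 8.65 and 10.3 CPM in Sham. All injured libraries lay far above Sham, and the injured groups overlapped. Nupr1 rose 8.96-fold in bIRI (log2 3.16, SE 0.27, adjusted p 8.86e-05) and 11.6-fold in BHBNa_bIRI (log2 3.53, SE 0.26, adjusted p 2.25e-05) against Sham. Cebpb, a factor that pairs with ATF4 on its elements (ENSMUSG00000056501, chr2:167688915-167690418), had 15.8, 14.0 and 20.6 CPM in BHBNa_bIRI, 12.6 and 13.8 CPM in bIRI, and 1.91, 3.61 and 4.57 CPM in Sham. The groups did not overlap, though BHBNa_bIRI 2 and bIRI 3 were close. It rose 3.93-fold in bIRI (log2 1.97, SE 0.33, adjusted p 0.00204) and 4.99-fold in BHBNa_bIRI (log2 2.32, SE 0.31, adjusted p 0.000456). Ddit3, the gene of CHOP, had 21.3, 14.8 and 22.2 CPM in BHBNa_bIRI, 13.6 and 15.2 CPM in bIRI, and 7.33, 7.99 and 8.58 CPM in Sham. Both injured groups lay above Sham and overlapped each other. Ddit3 rose 1.80-fold in bIRI (log2 0.85, SE 0.22, adjusted p 0.0144) and 2.44-fold in BHBNa_bIRI (log2 1.29, SE 0.20, adjusted p 0.000903), and the first call was lost without Sham 1 or Sham 2. Cebpb shares 312 exonic bases with Tmem189 and Ddit3 shares 68 with Mars, both on the opposite strand, at means of 173 and 59.8 CPM over the 8 libraries. The strand setting of the counting is not given in the sources used here, so reads of these pairs cannot be told apart.

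The kinase that starts the arm behaved like the ER sensors. Eif2ak3 (ENSMUSG00000031668, chr6:70844515-70905245) had 16.1, 19.2 and 17.8 CPM in BHBNa_bIRI, 26.1 and 37.7 CPM in bIRI, and 30.5, 32.6 and 22.3 CPM in Sham. Its BHBNa_bIRI libraries were below all the others, and bIRI and Sham overlapped. It fell 1.80-fold in BHBNa_bIRI against bIRI (log2 -0.85, SE 0.22, adjusted p 0.0392) and 1.61-fold against Sham (log2 -0.68, SE 0.20, adjusted p 0.0219). The first call was lost without Sham 1, Sham 2 or any 1 BHBNa_bIRI library. The second was lost without Sham 1, Sham 2, BHBNa_bIRI 1 or BHBNa_bIRI 3. Both were lost with length and GC trends removed (log2 -0.68 against bIRI and -0.43 against Sham).

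Feedback and stress targets of ATF4 gave 1 call, for Trib3. Trib3, a pseudokinase that curbs ATF4 and CHOP, had 15.5, 5.25 and 7.47 CPM in BHBNa_bIRI, 7.09 and 2.79 CPM in bIRI, and 4.90, 2.72 and 2.92 CPM in Sham. BHBNa_bIRI lay above Sham, with BHBNa_bIRI 1 the highest, and bIRI overlapped both. Its 2.68-fold rise in BHBNa_bIRI against Sham (log2 1.42, SE 0.48, adjusted p 0.0367) was lost without BHBNa_bIRI 1, BHBNa_bIRI 3, Sham 2 or Sham 3. Ppp1r15a, the gene of GADD34, which brings a phosphatase to eIF2alpha, had 27.5, 28.1 and 34.4 CPM in BHBNa_bIRI, 47.3 and 26.9 CPM in bIRI, and 16.1, 26.03 and 32.0 CPM in Sham. Chac1, which breaks down glutathione, had 3.96, 2.24 and 6.19 CPM in BHBNa_bIRI, 4.75 and 2.57 CPM in bIRI, and 2.21, 3.95 and 1.55 CPM in Sham. The groups overlapped for both genes, and neither was called. Sesn2, an amino acid sensor that restrains mTORC1, had 47.2, 38.9 and 53.5 CPM in BHBNa_bIRI, 42.8 and 26.4 CPM in bIRI, and 52.1, 50.4 and 59.9 CPM in Sham. Both bIRI libraries were below Sham, but no comparison of Sesn2 was called (bIRI against Sham log2 -0.64, SE 0.23, adjusted p 0.0574).

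Enzymes of amino acid and one-carbon synthesis held most of the arm's further calls. Phgdh, the first enzyme of serine synthesis (ENSMUSG00000053398, chr3:98313170-98339990), had 97.3, 77.2 and 94.0 CPM in BHBNa_bIRI, 48.5 and 28.3 CPM in bIRI, and 22.2, 22.4 and 25.04 CPM in Sham. The 3 groups did not overlap and BHBNa_bIRI was highest. Phgdh was called in all 3 comparisons, 2.33-fold higher in BHBNa_bIRI than in bIRI (log2 1.22, SE 0.24, adjusted p 0.0275), 1.65-fold higher in bIRI than in Sham (log2 0.73, SE 0.23, adjusted p 0.0337) and 3.86-fold higher in BHBNa_bIRI than in Sham (log2 1.95, SE 0.21, adjusted p 0.000146). Its rise in bIRI against Sham was lost without bIRI 1 (log2 0.22), without BHBNa_bIRI 1 or BHBNa_bIRI 3, and without any 1 Sham library. Its rise in BHBNa_bIRI against bIRI was lost without Sham 1, Sham 2, BHBNa_bIRI 1 or BHBNa_bIRI 3. Psat1, the next enzyme of that pathway, had 97.6, 108 and 145 CPM in BHBNa_bIRI, 108 and 75.6 CPM in bIRI, and 74.8, 47.0 and 58.7 CPM in Sham. All injured libraries were above Sham, bIRI 3 only just, and the rise in BHBNa_bIRI against Sham was called (log2 0.96, SE 0.24, adjusted p 0.00966) and was lost without Sham 2. Psph, the last enzyme of the pathway, had 23.6 to 34.2 CPM in BHBNa_bIRI, 19.0 and 7.42 CPM in bIRI and 15.2 to 19.4 CPM in Sham, and was not called. It shares 452 exonic bases on the opposite strand with Cct6a, which averaged 218 CPM against 20.3 CPM for Psph.

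Shmt2 and Mthfd2, mitochondrial enzymes that follow each other in one-carbon metabolism, went opposite ways. Shmt2 (ENSMUSG00000025403, chr10:127517123-127522444) had 92.8, 94.0 and 91.9 CPM in BHBNa_bIRI, 78.1 and 88.4 CPM in bIRI, and 318, 273 and 311 CPM in Sham. Sham lay far above the injured groups. It fell 3.61-fold in bIRI (log2 -1.85, SE 0.18, adjusted p 0.000152) and 3.24-fold in BHBNa_bIRI (log2 -1.69, SE 0.16, adjusted p 5.77e-05) against Sham. Mthfd2 (ENSMUSG00000005667, chr6:83305691-83325908) had 34.2, 35.2 and 32.3 CPM in BHBNa_bIRI, 28.5 and 14.5 CPM in bIRI, and 6.61, 7.56 and 9.85 CPM in Sham. The 3 groups did not overlap, and BHBNa_bIRI was highest. Mthfd2 rose 2.69-fold in bIRI (log2 1.43, SE 0.28, adjusted p 0.00433) and 4.23-fold in BHBNa_bIRI (log2 2.08, SE 0.26, adjusted p 0.000315) against Sham. The log2 fold change of Mthfd2 in bIRI against Sham was 0.79 without bIRI 1 and 1.84 without bIRI 3, both called. Aldh18a1, which starts proline synthesis from glutamate, had 20.4, 15.2 and 17.6 CPM in BHBNa_bIRI, 16.1 and 9.88 CPM in bIRI, and 5.72, 3.61 and 4.42 CPM in Sham. It rose 2.83-fold in bIRI (log2 1.503, SE 0.28, adjusted p 0.00329) and 3.87-fold in BHBNa_bIRI (log2 1.95, SE 0.26, adjusted p 0.000420), and the injured groups overlapped.

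Pycr1, which ends the same pathway, was rare, at 2.11 to 2.45 CPM in BHBNa_bIRI, 0.832 and 1.27 CPM in bIRI and 0.388 to 0.745 CPM in Sham. The groups did not overlap, and its 3.76-fold rise in BHBNa_bIRI against Sham was called (log2 1.91, SE 0.38, adjusted p 0.00352). Asns, the asparagine synthetase gene and a textbook ATF4 target, had 48.3, 26.2 and 24.6 CPM in BHBNa_bIRI, 41.4 and 15.8 CPM in bIRI, and 14.5, 15.6 and 18.2 CPM in Sham. All BHBNa_bIRI libraries were above Sham, bIRI 1 was high and bIRI 3 lay within Sham. The 2.05-fold rise of Asns in BHBNa_bIRI against Sham (log2 1.04, SE 0.36, adjusted p 0.0425) was lost when any 1 library of BHBNa_bIRI or Sham was left out.

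**Figure D3:**
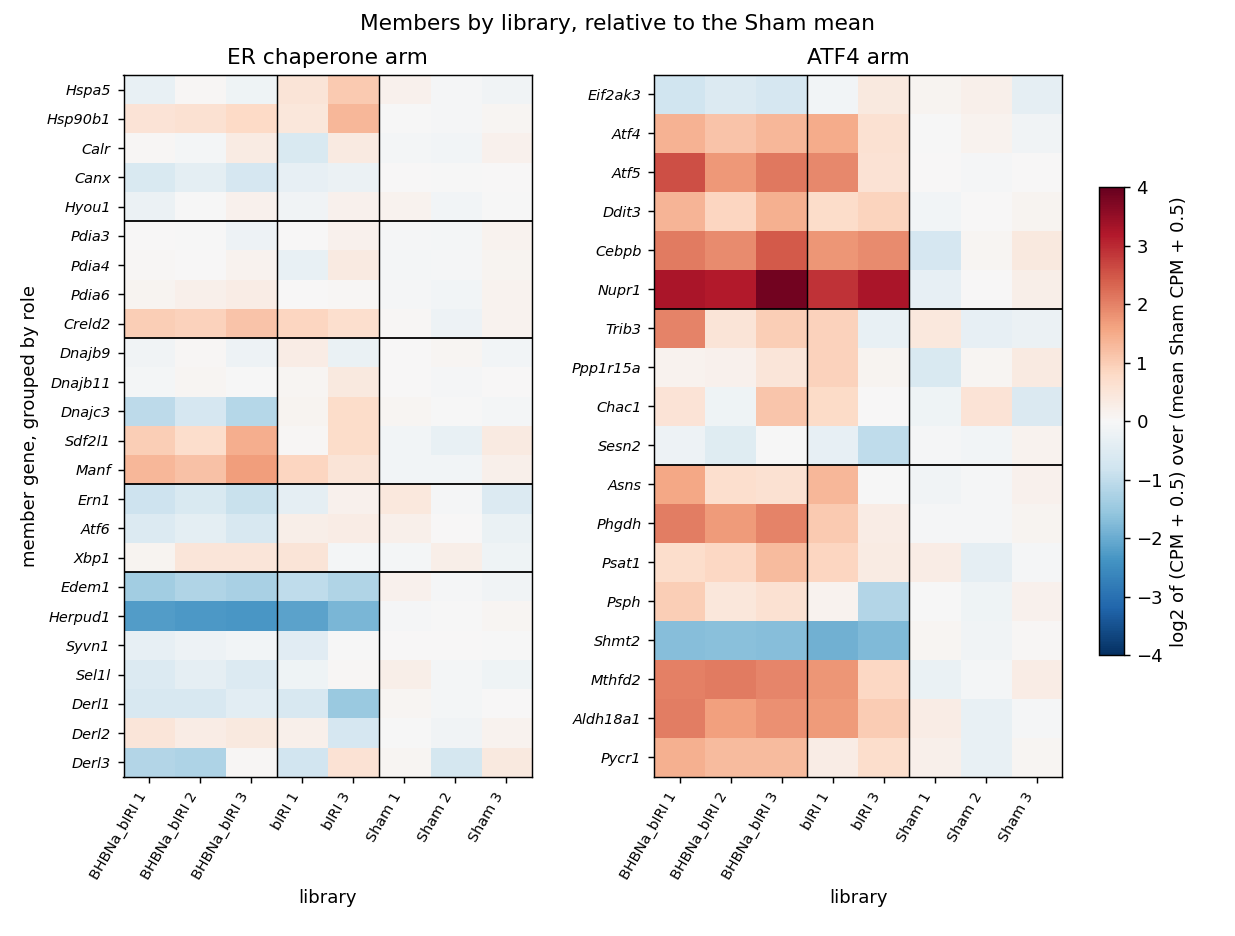
Level of each member (rows, grouped by role within each arm) in each of the 8 libraries (columns), as the log2 of its CPM plus 0.5 over the Sham mean CPM plus 0.5, red above and blue below Sham. Nupr1 is the reddest row in all 5 injured libraries, Herpud1 and Shmt2 are blue in all 5, and bIRI 3 is paler than bIRI 1 in most of the amino acid synthesis rows.

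The second comparison, BHBNa_bIRI against bIRI, asked how pretreatment with beta-hydroxybutyrate changed the members in injured kidneys. Phgdh, the first enzyme gene of serine synthesis, and the secreted factor gene Manf were higher with pretreatment, while BiP (Hspa5), its co-chaperone Dnajc3 and the sensor genes Atf6 and Eif2ak3 were lower. By edgeR, 2 of 42 members rose, where 4.88% of all genes tested did, 4 fell, where 8.65% did, and 36 were not called. In the ER chaperone arm 1 of 24 genes rose and 3 fell, with a median log2 fold change of -0.16. In the ATF4 arm 1 of 18 rose and 1 fell, with a median of 0.40, beside -0.05 over all genes tested. The median of the ER chaperone arm was 0.00093 without bIRI 3 and 0.0028 with length and GC trends removed. That of the ATF4 arm was 0.80 without bIRI 1, 0.24 without bIRI 3 and 0.20 with the trends removed. The members' share of calls, 14.3%, was near the 13.5% of all genes. For 19 of 42 members the BHBNa_bIRI and bIRI libraries were fully apart, 10 higher and 9 lower, against 46% of all genes, 22.2% higher and 23.8% lower. The log2 fold change was above 0 for 8 of 8 genes of amino acid synthesis, from 0.16 to 1.22, and all BHBNa_bIRI libraries were above both bIRI libraries for 5 of them, namely Phgdh, Psph, Shmt2, Mthfd2 and Pycr1. The share of all genes above 0 was not counted. The sign of Shmt2 turned with length and GC trends removed (log2 -0.19). That of Asns turned without bIRI 3 (log2 -0.33) and without BHBNa_bIRI 1 (log2 -0.17). Unadjusted p was under 0.05 for 12 of 42 members (28.6%) and for 34.5% of all genes.

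None of the 6 calls held under all the alternatives tried. The 6 were lost when only both compared groups were fitted, and without Sham 1, Sham 2, BHBNa_bIRI 1 or BHBNa_bIRI 3, under each of which 0 of 42 members were called by edgeR, with unadjusted p under 0.05 for 7 to 10 of them (16.7% to 23.8%, beside 25.3% to 31.1% of all genes). Without Sham 3 the calls of Hspa5 and Manf were lost, and without BHBNa_bIRI 2 those of Hspa5, Manf and Eif2ak3. With DESeq2 on the same 8 libraries 8 members were called (beside 24.7% of all genes). The number of calls also moved with the bIRI libraries. Without bIRI 1, so that bIRI 3 stood alone and was assumed to vary like the other groups, 18 members were called (42.9%, beside 42.8% of all genes). Without bIRI 3 there were 3 (7.14%, beside 4.27% of all genes), with Phgdh higher and Atf6 and Dnajc3 lower. The log2 fold change of Phgdh was 1.71 without bIRI 1 and 0.88 without bIRI 3, that of Dnajc3 was -1.63 and -1.07, and that of Hspa5 was -1.11 and -0.65. For Atf5 these values were 1.66 and 0.26, and for Asns they were 1.12 and -0.33. Neutrophil markers summed to 38.3 to 66.4 CPM in BHBNa_bIRI, 4.99 to 12.4 CPM in bIRI and 0.890 to 1.65 CPM in Sham, with 3 of 5 tested higher in BHBNa_bIRI than in bIRI, and their part in the members' values was not tested. Of 4 markers of the thick ascending limb, 3 were lower in BHBNa_bIRI than in bIRI, at a summed 247 to 811 CPM in BHBNa_bIRI, 1468 and 4064 CPM in bIRI and 1741 to 3234 CPM in Sham, and their part was not tested either. Of the 8 proximal tubule markers, 0 were called in this comparison.

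Transcript length moved with the fold change in BHBNa_bIRI against bIRI. Over the genes tested, the median log2 fold change went from 0.66 in the decile of genes with the shortest transcripts (median 618 bases) down to -0.60 in the decile with the longest (median 7788 bases). Spearman's rho between log2 fold change and length was -0.52 over 12940 expressed genes and -0.49 over the 42 members, which share the same 5 libraries, and is given as a description. The 4 members called lower had transcripts of 3672 to 7246 bases (median 4827), and the 2 called higher had transcripts of 1893 and 2247 bases. With a fit that removed the trends of each library with both length and GC content, 0 of 42 members and 2 of 17967 genes (0.0111%) were called, with unadjusted p under 0.05 for 16 members (38.1%, beside 26.1% of all genes). In that fit the log2 fold change was -0.83 for Dnajc3 (adjusted p 0.0518), -0.60 for Hspa5 (adjusted p 0.0844), -0.68 for Eif2ak3 (adjusted p 0.0710), -0.19 for Atf6 (adjusted p 0.430), 0.77 for Phgdh (adjusted p 0.0552) and 0.60 for Manf (adjusted p 0.0786).

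**Figure D4:**
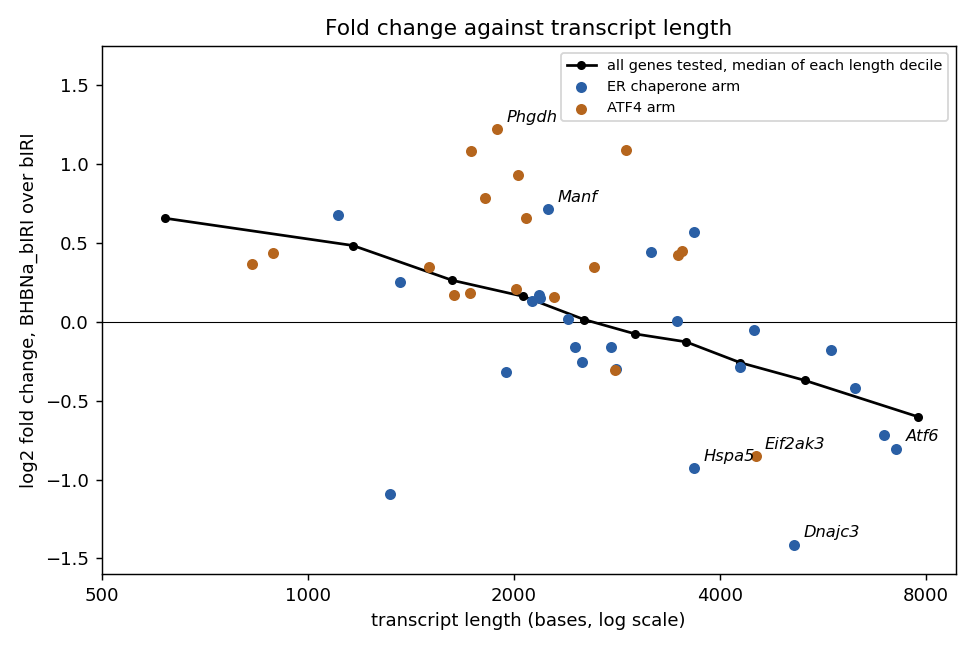
Log2 fold change in BHBNa_bIRI against bIRI (y axis) against transcript length in bases (x axis, log scale) for the members of each arm, with the median of all genes tested in each length decile (black line). The members called lower (Dnajc3, Hspa5, Eif2ak3 and Atf6) lie on the right below the line, and those called higher (Phgdh and Manf) lie left of them above it.

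The third comparison, BHBNa_bIRI against Sham, shares its libraries with both others and shows where pretreated injured kidneys stood against uninjured ones. Most of the ATF4 arm was higher, the sensor genes Ern1, Atf6 and Eif2ak3, 3 of 7 degradation genes and Dnajc3 were lower, and the folding genes were split. By edgeR, 16 of 42 members rose, where 21.3% of all genes tested did, and 9 fell, where 22.2% did. In the ATF4 arm 12 of 18 genes rose (Atf4, Atf5, Ddit3, Cebpb, Nupr1, Trib3, Asns, Phgdh, Psat1, Mthfd2, Aldh18a1 and Pycr1) and 2 fell (Eif2ak3 and Shmt2), with a median log2 fold change of 1.29. In the ER chaperone arm 4 of 24 rose (Hsp90b1, Creld2, Sdf2l1 and Manf) and 7 fell (Canx, Dnajc3, Ern1, Atf6, Edem1, Herpud1 and Sel1l), with a median of -0.09, beside 0.04 over all genes tested. With upper-quartile factors the ER chaperone arm split into 4 genes that rose and 4 that fell. For 29 of 42 members the BHBNa_bIRI and Sham libraries were fully apart, 18 higher and 11 lower, against 64.8% of all genes, 32.6% higher and 32.2% lower. The share of members called, 59.5%, stood beside 43.6% of all genes. With length and GC trends removed, 15 members rose and 5 fell, 11 of the rises in the ATF4 arm, where 23.8% of all genes rose and 22.2% fell, or 46% either way. In that fit 6 calls were lost, of Trib3 (log2 1.26), Sdf2l1 (0.67), Ern1 (-0.47), Atf6 (-0.21), Sel1l (-0.14) and Eif2ak3 (-0.43), and Pdia6 was gained (0.45). Cebpb was still called, at a log2 fold change of 1.53.

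Taken library by library, the median of the ATF4 arm over its Sham mean (log2) was 1.40, 0.85 and 1.27 in BHBNa_bIRI 1, 2 and 3, 0.92 and 0.36 in bIRI 1 and 3, and -0.04, -0.05 and 0.08 in Sham 1, 2 and 3. The median of the ER chaperone arm was -0.19, -0.02 and -0.05 in BHBNa_bIRI, 0.02 and 0.18 in bIRI, and 0.01, -0.05 and 0.03 in Sham. The median of the ATF4 arm thus stood above Sham in all 5 injured libraries, while that of the ER chaperone arm stayed within 0.19 of it. Parts of the ER chaperone arm differed. The median of its degradation genes was -0.63, -0.65 and -0.42 in BHBNa_bIRI and -0.64 and -0.67 in bIRI. That of its folding genes was 0.02, 0.04 and 0.16 in BHBNa_bIRI and 0.05 and 0.39 in bIRI. In 12 of 18 ATF4 arm genes bIRI 1 was above bIRI 3, and in 17 of 24 ER chaperone arm genes bIRI 3 was above bIRI 1. The share of all genes that lay higher in either bIRI library was not counted. Over all genes tested the median was 0.01 in bIRI 1 and 0.02 in bIRI 3. The medians of both arms thus differed between these 2 single libraries, and the cause was not tested.

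**Figure D5:**
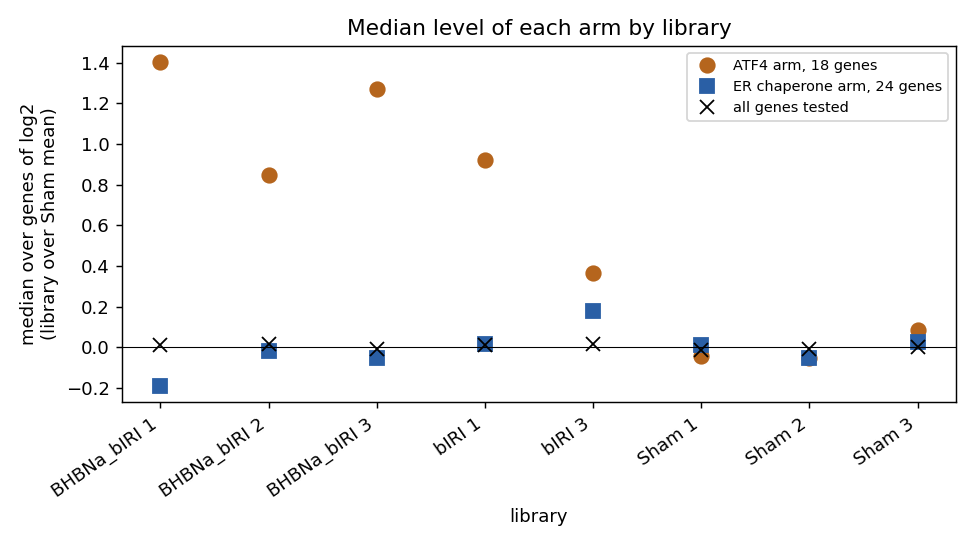
Median over genes of the log2 level relative to the Sham mean (y axis) in each library (x axis) for the 18 genes of the ATF4 arm, the 24 of the ER chaperone arm and all genes tested. The ATF4 arm lies between 0.36 and 1.40 in the injured libraries and bIRI 3 is its lowest, while the ER chaperone arm lies between -0.19 and 0.18.

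Levels between genes were compared per kilobase of transcript. In the ER chaperone arm Calr was the most abundant in each group, at a mean of 290.4 CPM per kilobase in BHBNa_bIRI, 262 in bIRI and 269.6 in Sham, and Derl3 the least, at 0.497, 1.05 and 1.00 in the same groups. Herpud1 ranked second in Sham, at 205 CPM per kilobase, but eleventh in BHBNa_bIRI at 41.9 and eighth in bIRI at 52.3. In the ATF4 arm Atf4 led in BHBNa_bIRI (122 CPM per kilobase) and in bIRI (108), followed by Nupr1 (119.8 and 92.7), where Shmt2 led in Sham at 131. Atf4 and Nupr1 did not differ in level beyond the spread of their libraries in either injured group.

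Other genes of the same pathways, 48 in a wider list, moved in both directions, and 47 of them were tested. In bIRI against Sham 11 rose and 10 fell, where 18.9% of all genes rose and 16.2% fell. Gdf15, a stress hormone and ATF4 and CHOP target, had 132, 93.3 and 145 CPM in BHBNa_bIRI, 182 and 27.7 CPM in bIRI, and 9.64, 18.2 and 35.1 CPM in Sham, and rose in bIRI (log2 2.32, SE 0.68, adjusted p 0.0262), though bIRI 3 overlapped Sham. Eif2ak2, the kinase PKR, which phosphorylates eIF2alpha on double-stranded RNA, rose (log2 2.17, SE 0.29), as did the arginine transporter gene Slc7a1 (log2 1.81, SE 0.22). Cth, which makes cysteine, fell (log2 -2.15, SE 0.20), as did Tmbim6, an ER membrane protein that guards against cell death (log2 -1.48, SE 0.27), and Crebrf (log2 -1.04, SE 0.20). In BHBNa_bIRI against bIRI 4 rose and 6 fell, beside 4.88% and 8.65% of all genes. The 3 with the largest rises were Bbc3, the gene of the death protein PUMA (log2 1.26, SE 0.29), the translocon subunit gene Sec61b (log2 1.24, SE 0.28) and the IRE1 partner gene Traf2 (log2 1.01, SE 0.22). The 3 with the largest falls were the degradation gene Edem3 (log2 -1.96, SE 0.30), the factor gene Creb3l2 (log2 -0.90, SE 0.25) and the ER lectin gene Erlec1 (log2 -0.84, SE 0.18). Over all genes tested, the 2431 calls of this comparison came down to 1 when only the compared groups were fitted. They came down to 0 with a replicate block and to 2 with length and GC trends removed. The calls of the wider list were not followed under these alternatives. In BHBNa_bIRI against Sham 14 rose and 16 fell, beside 21.3% and 22.2% of all genes, among them Gdf15 (log2 2.56, SE 0.65), Atf3 (log2 1.94, SE 0.45) and the amino acid transporter gene Slc7a5 (log2 1.77, SE 0.35) upward and Cth (log2 -2.07, SE 0.17), Crebrf (log2 -1.73, SE 0.18) and Tmbim6 (log2 -1.43, SE 0.23) downward. The list's median log2 fold change was -0.02 in bIRI against Sham, 0.06 in BHBNa_bIRI against bIRI and 0.06 in BHBNa_bIRI against Sham.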

How the data were processed

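Paired-end RNA-seq libraries from mouse kidney were analysed from the raw counts per gene that the authors deposited, 1 table per library. Per the submitters' processing notes, HISAT2, featureCounts of Subread, DESeq2 and the mm10 build were used, with no version, annotation or strand setting stated. The labels name 2 kinds of sequencer without saying which library ran on which. Gene identifiers were named from GENCODE M21 on GRCm38, which gave a symbol to 29220 of 29678 genes, and coordinates are those of that annotation.

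Low counts were filtered with edgeR 4.0.16 in R 4.3.3, counts were scaled by TMM (factors 0.830 to 1.37), and 1 quasi-likelihood model with a mean per group was fitted to 8 libraries, with 5 residual degrees of freedom. The design left out bIRI 2 if its counts proved to be the mean of bIRI 1 and bIRI 3, and they did. Tests were two-sided, with Benjamini-Hochberg adjustment over 17967 genes. A trial on counts simulated from the same kind of model, with changes only in some genes of bIRI, checked the code and not its fit to these data. Standard errors (SE) were worked out as the absolute log2 fold change over the square root of edgeR's F statistic. Log2 levels in figures used a pseudocount of 0.5 CPM. Members and lists were chosen with earlier results of these data known. Values per library are given for textbook readouts of each arm and for the 4 members per arm with the largest called changes in each comparison, and from the wider list up to 3 genes each way are named if a group averaged at least 5 CPM. Marker lists of proximal tubule, thick ascending limb, neutrophils and B and plasma cells were summed. Lists of distal convoluted tubule, collecting duct principal cells, intercalated cells, podocytes, endothelium, fibroblasts, macrophages and T cells were also summed but are not described. Alternatives were DESeq2 1.42.0, other scalings and filters, only the compared groups, a replicate block, all 9 libraries, removal of length and GC trends (available for 17928 genes), and each library left out in turn.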

Additional observations from a re-analysis of the deposited data

How the results depend on the processing

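No called log2 fold change of a member turned round under the 18 alternatives. Of all 2268 pairs of a member value and an alternative, 84 changed sign, over 31 members, and none of these 84 was called. In bIRI against Sham 10 of 16 member calls held under all alternatives, in BHBNa_bIRI against Sham 15 of 25, and in BHBNa_bIRI against bIRI 0 of 6. In BHBNa_bIRI against bIRI, 4 genes of the ER chaperone arm, 2 of the ATF4 arm and 2431 of all genes were called. With only both compared groups these counts were 0, 0 and 1, and with length and GC trends removed they were 0, 0 and 2. DESeq2 called 4 genes of the ATF4 arm and 4441 of all genes, and all 9 deposited libraries gave 5 and 5847. The cause of these shifts was not tested, except that the last fit adds a library that is a mean of others.

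With the replicate number as a replicate block, 0, 0 and 0 were called in BHBNa_bIRI against bIRI (4 and 2 in the arms without it), with unadjusted p under 0.05 for 13 members (31%, beside 29.3% of all genes), and 7 of the ER chaperone arm in BHBNa_bIRI against Sham (11 without it). Whether the numbers pair the libraries was not settled. Same-numbered libraries deviated from their group means with correlations of -0.351 to 0.162. With only 2 bIRI libraries their deviations mirror each other, so these correlations cannot show whether the numbers pair them.

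Leaving out 1 library at a time, bIRI against Sham called 4 to 8 genes of the ER chaperone arm (4 without Sham 2), 7 to 12 of the ATF4 arm and 4180 to 9064 of all genes (6303 with all 8 libraries). BHBNa_bIRI against bIRI called 0 to 8, 0 to 10 and 0 to 8381, with 8381 without bIRI 1. It called 0 of all genes without Sham 1, Sham 2 or BHBNa_bIRI 1 and 1 without BHBNa_bIRI 3. BHBNa_bIRI against Sham called 5 to 13, 10 to 15 and 5408 to 10308 (7826 with all 8). Where a bIRI library was left out, the lone bIRI library was assumed to vary like the other groups. Depth is lowest for Derl3 and Pycr1, with as few as 13 and 17 counts in a library, and counting error was not set against the spread between libraries.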
